A study of Mus musculus with 6 samples.

Results

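The 42 cell cycle and DNA replication genes described here were chosen by name, with earlier results of these data known. They form a G1 class of 5 genes (the cyclins *Ccnd1*, *Ccnd2*, *Ccne1* and *Ccne2*, with the transcription factor *E2f1*), a replication class of 12 genes and a mitotic class of 25 genes. Each of the 42 symbols had a single row among the 25403 genes of the count table, and all 42 were among the 14496 genes with enough counts to be tested. RNA was sequenced from the livers of 3 wild-type C57BL6/J mice (WT) and 3 mice labelled *Themis* KO, a knockout of the whole body rather than of 1 cell type. The labels give no strain for the latter. All 6 mice started a MASH diet at 10 to 12 weeks of age and stayed on it for 3 months, so no liver on a control diet stands beside them. Fat supplied 40% and fructose 20% of the calories of this diet, which also held 2% cholesterol.

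A dividing cell first makes D-type and E-type cyclins, which with their kinases release E2F transcription factors from the retinoblastoma family. The replication genes then load and run the MCM helicase, supply nucleotides and copy the DNA. Later the mitotic genes condense the chromosomes, build the spindle and split the cell. Adult hepatocytes are mostly at rest and enter this program after injury or loss of tissue, and Kupffer cells, stellate cells and cholangiocytes can also divide in an injured liver.

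The libraries held between 20679642 and 25649767 counts. Levels are given in CPM, read counts scaled to a common library size by TMM, and fold changes are *Themis*-KO over WT on the log2 scale with their standard error (SE). Adjusted p comes from the quasi-likelihood test of edgeR, corrected over the 14496 genes by the Benjamini-Hochberg method, and a gene is said to rise or fall at an adjusted p under 0.05. The targeted gene did not separate the labels. *Themis*, at 28668360 to 28883818 on chromosome 10 of GRCm38, was at 8.07, 25.6 and 12.0 CPM in the WT livers and at 8.63, 7.74 and 9.97 CPM in the *Themis*-KO livers. The level of WT 1 fell between those of *Themis*-KO 2 and *Themis*-KO 1 (log2 fold change −0.79 ± 0.38, adjusted p = 0.199; exact two-sided permutation test p = 0.3, where the smallest possible p is 0.1). Genotypes below are therefore those of the labels. WT 1 and WT 2 also stood apart from the other 4 livers in how reads were divided between *mt-Nd3*, a mitochondrial gene, and *Gm28438*, a near-identical copy. The copy took 96.6% and 96.8% of the reads of both genes in these livers, against 2.2% to 3.26% in the rest. Fewer cells of a type and less RNA per cell cannot be told apart in whole liver RNA.

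Part of the mitotic class was higher in the livers labelled *Themis*-KO, and no replication or G1 gene passed the test. Of the 42 genes, 6 rose and 0 fell, and all 6 were mitotic. Over all genes tested, 4.97% rose and 4.14% fell. By the unadjusted p, 18 of the 42 were below 0.05 with a higher level and 0 with a lower one, beside 16.8% and 13.9% of all genes. Every *Themis*-KO liver lay above every WT liver for 20 of the 42 and below for 0, where 17.7% of all genes lay above and 16.9% below. The fitted fold change was positive for 38 and negative for 4. Its median was 0.51, against 0.0095 over all genes tested.

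**Figure D1:**
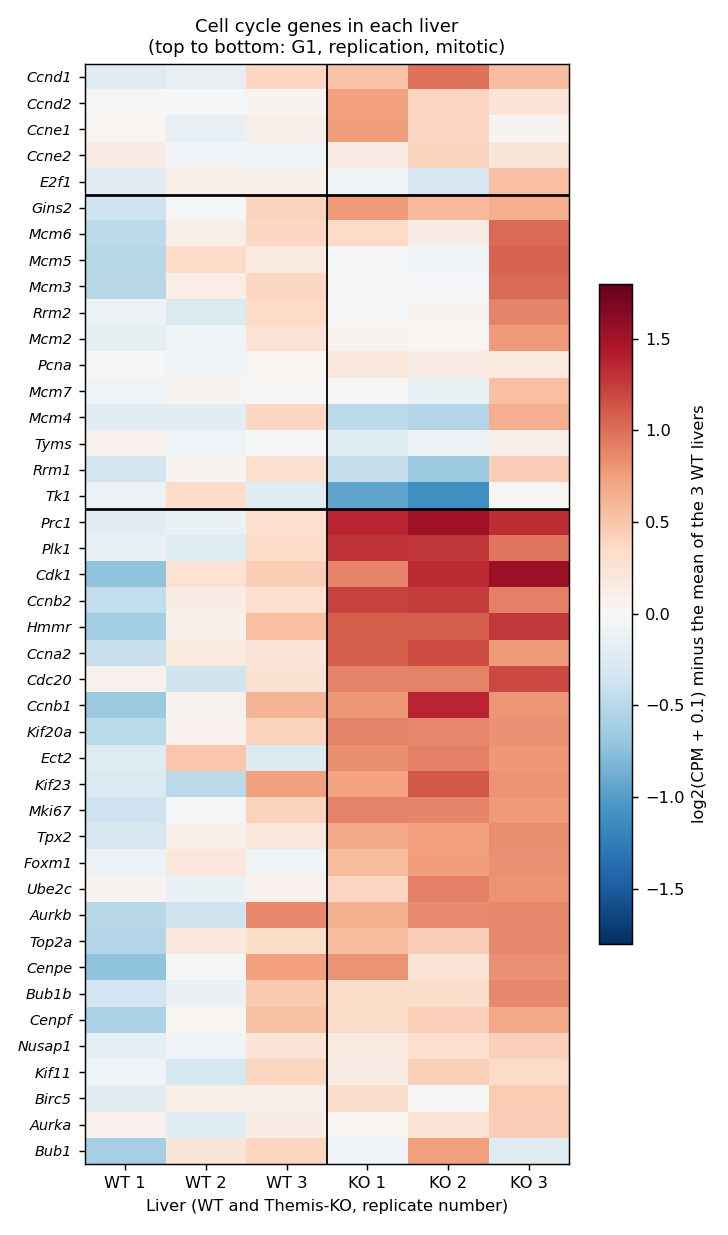
Level of each of the 42 genes (rows, by class and within it by fold change) in each liver (columns), as log2(CPM + 0.1) minus the mean of the 3 WT livers. Most of the 25 mitotic rows are redder in the *Themis*-KO livers (median log2 fold change 0.77), and in 15 every *Themis*-KO liver is above every WT liver. *Bub1* is below the WT mean in *Themis*-KO 1 and 3. Of the 12 replication rows, 9 are at their highest in *Themis*-KO 3.

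The classes differed in how their genes were spread over the livers. All 25 mitotic genes had a positive fold change, with a median of 0.77 and a range of 0.19 to 1.43, and 15 of them did not overlap between the groups (60%). In the G1 class all 5 fold changes were positive with a median of 0.43, 3 genes did not overlap, and 0 passed the adjusted threshold (2 at an unadjusted p under 0.05). In the replication class 8 fold changes were positive and 4 negative, with a median of 0.24, and 2 genes did not overlap (16.7%, near the 17.7% of all genes). There 0 passed the adjusted threshold and 1 had an unadjusted p under 0.05. The median of the replication class became −0.08 when *Themis*-KO 3 was left out, so its direction rested on that liver. The summed level of the mitotic genes was 33.1, 41.99 and 52.8 CPM in the WT livers and 70.2, 74.8 and 75.7 CPM in the *Themis*-KO livers. The groups did not overlap, and WT 3 was the WT liver nearest to them. The summed replication level was 135, 157 and 174 CPM in WT and 152, 143 and 229 CPM in *Themis*-KO. Here *Themis*-KO 1 and 2 lay inside the WT range and *Themis*-KO 3 above it. The G1 class, in which *Ccnd1* held most of the reads, summed to 77.3, 81.7 and 107 CPM in WT and to 124, 152 and 124 CPM in *Themis*-KO, without overlap. The mean log2 CPM of the mitotic genes minus that of the replication genes was −3.08, −3.01 and −2.82 in WT and −2.23, −2.02 and −2.78 in *Themis*-KO. By this measure *Themis*-KO 3 lay next to WT 3.

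**Figure D2:**
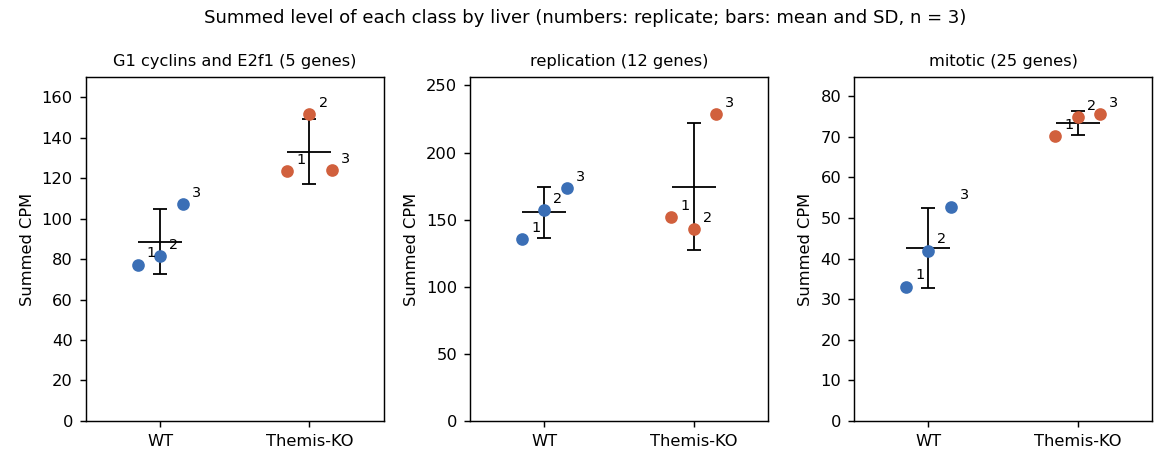
Summed CPM of the G1, replication and mitotic classes in each liver, with the replicate number beside each point and the mean and SD of the 3 livers of a group as bars. The mitotic sums reach at most 52.8 CPM in WT and start at 70.2 CPM in *Themis*-KO, while only *Themis*-KO 3 lies above the WT livers for replication.

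The 6 genes that rose include regulators of mitotic entry, of the spindle and of the separation of daughter cells. Among them *Ccna2* also acts in S phase, and *Mki67* marks cycling cells rather than mitosis alone. *Prc1*, which bundles the microtubules of the central spindle for cytokinesis, was at 1.65, 1.73 and 2.37 CPM in the WT livers and at 5.06, 5.59 and 4.91 CPM in the *Themis*-KO livers. These counts, between 36 and 130 reads per liver, left a wide gap between the groups, and *Prc1* rose 2.69-fold (1.43 ± 0.19, adjusted p = 0.0131). *Plk1*, the polo-like kinase that drives mitotic entry and spindle assembly, was at 0.688, 0.624 and 0.987 CPM in WT and at 2.00, 1.98 and 1.56 CPM in *Themis*-KO. Its groups did not overlap, and it rose by 1.25 ± 0.27 (adjusted p = 0.0369) on 13 to 47 reads per liver. *Ccnb2*, a B-type cyclin that activates Cdk1, was at 0.642, 1.01 and 1.14 CPM in WT and at 2.25, 2.32 and 1.79 CPM in *Themis*-KO. It rose by 1.18 ± 0.28 (adjusted p = 0.0417), with WT 1 lowest and *Themis*-KO 3 the lowest of its group.

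*Ccna2*, the cyclin of S phase and of the approach to mitosis, was at 1.65, 2.495 and 2.60 CPM in WT and at 4.76, 5.12 and 3.83 CPM in *Themis*-KO. It rose 2.03-fold (1.02 ± 0.23, adjusted p = 0.0386) without overlap. *Cdc20*, the activator that lets the anaphase-promoting complex degrade cyclin B and securin, was at 1.33, 0.960 and 1.54 CPM in WT and at 2.42, 2.41 and 2.98 CPM in *Themis*-KO. It rose 2.02-fold (1.01 ± 0.24, adjusted p = 0.0426), again without overlap. *Mki67*, which coats mitotic chromosomes and encodes the Ki-67 antigen used to count cycling cells, was at 4.68, 5.90 and 8.09 CPM in WT and at 11.4, 11.2 and 10.4 CPM in *Themis*-KO. *Mki67* rose by 0.82 ± 0.20 (adjusted p = 0.0437). The *Themis*-KO livers were close together for *Mki67* (SD 0.536 CPM, n = 3), and the WT livers were spread more widely (SD 1.73 CPM, n = 3).

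**Figure D3:**
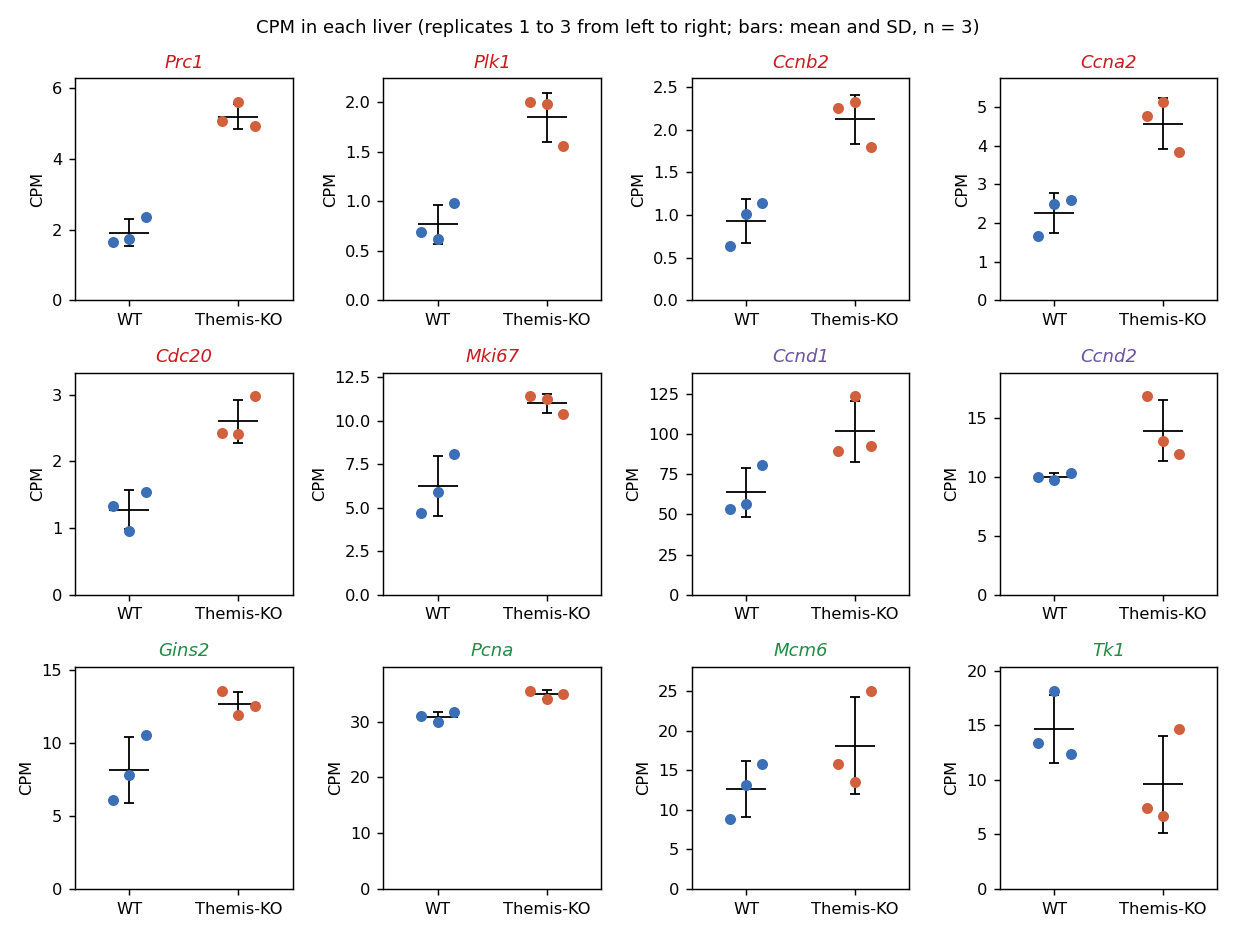
CPM of 12 genes in each liver, with replicates 1 to 3 from left to right in each group and the mean and SD (n = 3) as bars; the title colour marks the class (red mitotic, purple G1, green replication). The 6 mitotic genes and *Ccnd1*, *Ccnd2*, *Gins2* and *Pcna* show no overlap between groups, whereas *Mcm6* and *Tk1* overlap.

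These 6 calls depended on which livers were in the fit. All 6 stood without *Themis*-KO 3 and 3 of 6 without WT 3, but 0 stood when WT 1, WT 2, *Themis*-KO 1 or *Themis*-KO 2 was left out, where their fold changes ranged from 0.65 to 1.44 and their adjusted p from 0.0601 to 0.147. Few genes passed at all in those 4 fits (8 to 27 higher). With the *mt-Nd3* and *Gm28438* split as a covariate, and with WT 1 and WT 2 left out, 0 of the 6 passed as well. In both of these fits 0 genes of the whole table were called higher, so the count of members says nothing about them in particular. There 20 of the 25 mitotic fold changes were positive, and the median of the class was 0.44 and 0.42.

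Of the other mitotic genes, 9 did not overlap and had an unadjusted p under 0.05 without passing the adjusted threshold. *Cdk1*, the kinase at the centre of mitotic entry, was at 0.963, 2.02 and 2.33 CPM in WT and at 3.14, 4.39 and 5.01 CPM in *Themis*-KO (1.23 ± 0.33, adjusted p = 0.0564). Its fold change was the third largest of the class, and WT 1 was its lowest liver. *Foxm1*, a transcription factor of the mitotic genes, was at 1.24, 1.54 and 1.26 CPM in WT and at 2.04, 2.32 and 2.46 CPM in *Themis*-KO (0.76 ± 0.21, adjusted p = 0.0609). *Top2a*, the topoisomerase that untangles sister chromatids, was at 2.39, 3.98 and 4.42 CPM in WT and at 5.23, 4.77 and 6.42 CPM in *Themis*-KO (0.60 ± 0.25, adjusted p = 0.147). *Ccnb1*, the main partner of Cdk1, had only 8 to 42 reads per liver and was at 0.367, 0.672 and 1.03 CPM in WT and at 1.19, 1.81 and 1.18 CPM in *Themis*-KO (0.99 ± 0.39, adjusted p = 0.133). For all 4 genes every *Themis*-KO liver was above every WT liver, by a narrow margin in *Ccnb1* and *Top2a*.

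The same held for *Hmmr*, *Kif20a*, *Ect2*, *Tpx2* and *Ube2c*, whose products organize the spindle, split the cell or mark mitotic proteins for degradation, with fold changes from 0.75 to 1.16. The other 10 mitotic genes overlapped between the groups. Among them the spindle checkpoint kinase *Bub1* had the smallest fold change of the class (0.19 ± 0.47) on 5 to 17 reads per liver. *Aurka* (0.25), *Birc5* (0.28), *Kif11* (0.28) and *Nusap1* (0.30) also lay at the low end. For *Aurkb*, which encodes the kinase of the chromosomal passenger complex, the levels were 0.596, 0.672 and 1.70 CPM in WT and 1.44, 1.68 and 1.70 CPM in *Themis*-KO. WT 3 matched the *Themis*-KO livers in *Aurkb*, unlike WT 1 and WT 2. WT 1 was the lowest liver for 18 of the 25 mitotic genes and WT 2 for 6. Over the class, the level of WT 3 was a median of 1.504 times the mean of WT 1 and WT 2.

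**Figure D4:**
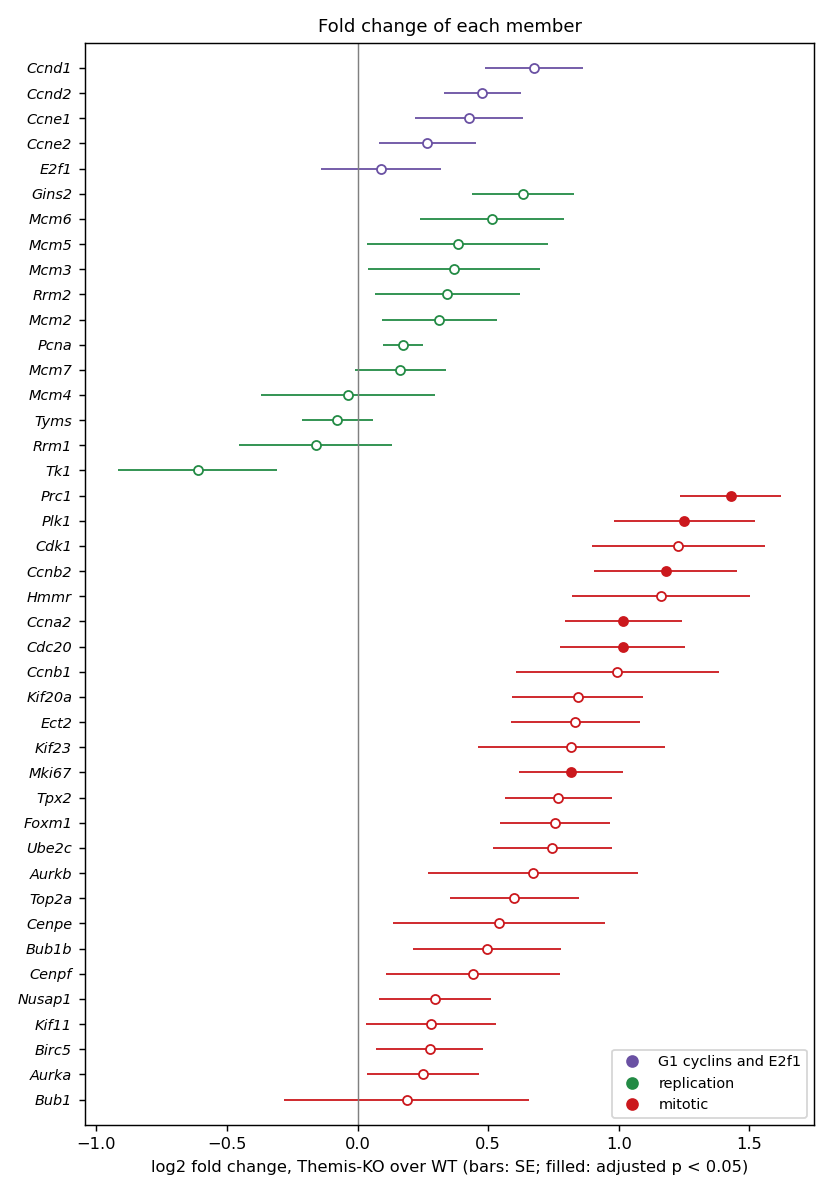
Fold change of each of the 42 genes (log2, *Themis*-KO over WT) with its SE, by class, filled where the adjusted p is under 0.05. The 25 mitotic genes all lie to the right of 0 and include the 6 filled points, while 4 of the 12 replication genes lie to the left of 0.

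In mouse and human cells, mitotic genes are typically repressed at rest and switched on late in the cycle through a short promoter element called the CHR, often with CCAAT boxes nearby, whereas many G1 and replication genes carry E2F sites. RefSeq promoters of GRCm38.p6, from 250 bases before to 50 bases after a start site, were found for 20 mitotic, 10 replication and 2 G1 members. They were searched on both strands for the CHR (TTTGAA or TTTAAA), for CCAAT and for an E2F site (TTTCCCGC or TTTGGCGC). The shorter E2F core of 7 letters was also searched, in the form TTCCCGC, then in the form TTGGCGC, then in the form TTCGCGC and last in the form TTGCCGC. Each hit of the longer E2F letters contains such a core. The promoters of 3 of the genes that rose are printed in the direction of the gene, with every match in capitals. Each holds both the CHR and the CCAAT letters, as most of the mitotic promoters did. The order and spacing of the letters were not compared over the class.

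Prc1, chr7:80294201-80294500, plus strand, with CCAAT at −37 and the CHR at −5 from the start site at +1.
Prc1: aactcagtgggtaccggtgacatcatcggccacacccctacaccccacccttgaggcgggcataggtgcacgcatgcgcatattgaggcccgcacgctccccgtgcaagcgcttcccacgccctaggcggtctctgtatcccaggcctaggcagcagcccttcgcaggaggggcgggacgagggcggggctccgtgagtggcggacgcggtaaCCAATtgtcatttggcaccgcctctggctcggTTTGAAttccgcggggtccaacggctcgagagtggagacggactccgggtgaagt
Plk1, chr7:122159185-122159484, plus strand, with the CHR at −89, −29 and 31 and CCAAT at −14.
Plk1: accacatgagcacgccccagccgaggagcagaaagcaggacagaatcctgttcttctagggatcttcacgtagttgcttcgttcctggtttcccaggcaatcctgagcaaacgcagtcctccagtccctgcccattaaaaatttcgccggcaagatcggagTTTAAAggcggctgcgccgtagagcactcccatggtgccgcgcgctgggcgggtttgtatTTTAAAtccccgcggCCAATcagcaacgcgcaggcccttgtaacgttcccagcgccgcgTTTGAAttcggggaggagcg
Ccnb2, chr9:70421505-70421804, minus strand, with the CHR at −167 and 5 and CCAAT at −87, −54 and −21.
Ccnb2: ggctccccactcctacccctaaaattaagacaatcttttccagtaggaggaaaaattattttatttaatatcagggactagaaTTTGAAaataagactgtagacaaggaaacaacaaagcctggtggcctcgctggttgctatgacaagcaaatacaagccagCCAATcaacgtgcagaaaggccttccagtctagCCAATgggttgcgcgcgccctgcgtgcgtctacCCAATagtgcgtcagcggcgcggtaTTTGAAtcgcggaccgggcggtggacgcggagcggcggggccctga

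The CHR letters stood in the promoters of 18 of the 20 mitotic genes (all but *Bub1* and *Nusap1*), of 4 of the 10 replication genes and of 23.2% of the tested genes with a promoter. The CCAAT letters stood in 18 of 20 mitotic genes, 8 of 10 replication genes and 42.8% of tested genes. On the strand of the gene alone, CCAAT was found in 13 mitotic genes (65%) and 5 replication genes, and the CHR in 16 and 4. The E2F letters were in 0 of 20 mitotic genes and in 4 of 10 replication genes (*Mcm3*, *Mcm5*, *Mcm6* and *Mcm7*), beside 3.26% of tested genes. On the strand of the gene alone they were in 2 replication genes, beside 1.69% of tested genes. The E2F core of 7 letters was in 5 of 20 mitotic and 6 of 10 replication genes and in 18.4% of tested genes. Neither E2F form was in the promoters of the 2 G1 genes (*Ccne1* and *E2f1*), and the CHR was in 1 of them (*Ccne1*). The *E2f1* window, 154569377 to 154569676 on chromosome 2, lies inside the gene model. This gene is on the minus strand and its model reaches to 154569892, so the sequence before that end was not searched.  The matches in all these promoters describe sequence, not binding. The split between the classes was not clean. *Mcm2*, *Rrm2* and *Tk1* held the CHR without the longer E2F letters, *Mcm5* held both, and *Mki67*, which rose, held an E2F core. The promoters of *Mcm6* and *Mcm3*, printed here, were picked because they hold the longer E2F letters and no CHR. Capitals run together where matches overlap.

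Mcm6, chr1:128359656-128359955, minus strand, with the E2F letters at −110 and −47, a core on the other strand at −106, −43 and 25, and CCAAT on the other strand at −57 and −14.
Mcm6: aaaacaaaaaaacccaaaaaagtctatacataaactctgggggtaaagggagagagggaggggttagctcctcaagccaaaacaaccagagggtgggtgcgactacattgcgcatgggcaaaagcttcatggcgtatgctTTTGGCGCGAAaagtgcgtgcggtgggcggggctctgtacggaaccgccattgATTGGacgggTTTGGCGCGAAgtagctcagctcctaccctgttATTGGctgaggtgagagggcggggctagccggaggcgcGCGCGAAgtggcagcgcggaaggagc
Mcm3, chr1:20820263-20820562, minus strand, with the E2F letters at 39 and, on the other strand, at 20, a further core on the other strand at 43, and CCAAT at −72 and −32 and, on the other strand, at −117.
Mcm3: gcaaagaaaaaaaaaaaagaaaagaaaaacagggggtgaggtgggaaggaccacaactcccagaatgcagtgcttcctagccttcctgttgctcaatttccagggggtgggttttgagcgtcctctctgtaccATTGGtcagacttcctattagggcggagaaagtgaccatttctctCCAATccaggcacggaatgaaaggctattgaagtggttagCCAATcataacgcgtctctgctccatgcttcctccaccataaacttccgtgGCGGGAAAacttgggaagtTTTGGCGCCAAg

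The replication genes did not follow the mitotic ones. *Mcm6*, a subunit of the helicase that opens the DNA, was at 8.85, 13.2 and 15.9 CPM in WT and at 15.8, 13.5 and 25.1 CPM in *Themis*-KO (0.52 ± 0.28, adjusted p = 0.243). *Mcm2*, another subunit, was at 11.2, 12.1 and 15.2 CPM in WT and at 13.4, 13.0 and 21.7 CPM in *Themis*-KO (0.31 ± 0.22, adjusted p = 0.361). In both genes *Themis*-KO 1 and 2 lay within the WT range and *Themis*-KO 3 was highest. The other helicase subunits had fold changes from −0.04 (*Mcm4*) to 0.38 (*Mcm5*), and all 6 overlapped between the groups.

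The enzymes that supply nucleotides gave values on both sides of 0. *Rrm1*, the large subunit of ribonucleotide reductase, was at 12.2, 15.9 and 18.7 CPM in WT and at 11.3, 9.68 and 21.0 CPM in *Themis*-KO (−0.16 ± 0.29, adjusted p = 0.739). *Rrm2*, its small subunit, was at 8.17, 7.25 and 11.2 CPM in WT and at 8.63, 9.08 and 16.3 CPM in *Themis*-KO (0.34 ± 0.28, adjusted p = 0.424). *Tk1*, the thymidine kinase of cycling cells, was at 13.3, 18.2 and 12.4 CPM in WT and at 7.39, 6.67 and 14.7 CPM in *Themis*-KO (−0.61 ± 0.30, adjusted p = 0.213). *Tyms*, thymidylate synthase, had a fold change of −0.08. In *Tk1*, *Rrm1*, *Tyms* and the helicase subunit *Mcm4*, *Themis*-KO 1 and 2 were both below every WT liver and *Themis*-KO 3 was not. Without *Themis*-KO 3, *Tk1* fell, with a fold change of −1.07 and an adjusted p of 0.00773, in a fit that called 2039 genes lower against 600 with all livers.

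Only *Gins2* and *Pcna* did not overlap between the groups in this class. *Gins2*, a subunit of the GINS complex that activates the helicase, was at 6.10, 7.82 and 10.6 CPM in WT and at 13.6, 12.0 and 12.6 CPM in *Themis*-KO (0.63 ± 0.20, adjusted p = 0.0777). *Pcna*, the sliding clamp of the polymerases that also serves in DNA repair, was at 31.0, 29.9 and 31.8 CPM in WT and at 35.6, 34.1 and 35.0 CPM in *Themis*-KO. The difference was small and even across livers (1.13-fold, 0.17 ± 0.08, adjusted p = 0.166). *Pcna* and *Gins2* were also the replication genes in which *Themis*-KO 3 was closest to the other livers of its group, at 1.01 and 0.983 times the mean of *Themis*-KO 1 and 2.

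For the other 10 replication genes, *Themis*-KO 1 and 2 were both below the highest WT liver. The ratio of *Themis*-KO 3 to the mean of *Themis*-KO 1 and 2 had a median of 1.78 in the replication class, 1.09 in the mitotic class and 0.868 in the G1 class. *Mcm4* had the largest ratio of the members (2.24), and *Mcm5*, *Tk1* and *Mcm3* followed with 2.14, 2.09 and 2.05. *Themis*-KO 3 was also the highest liver for 22 of 28 further replication genes.

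**Figure D5:**
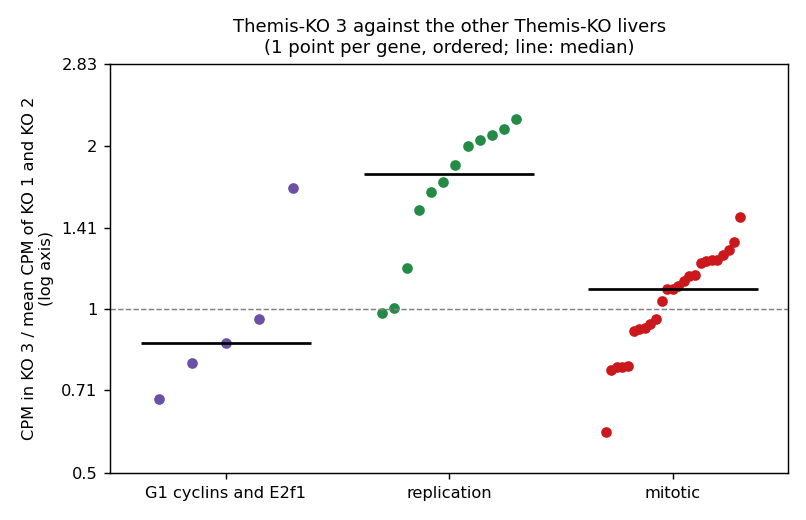
Ratio of the CPM in *Themis*-KO 3 to the mean CPM of *Themis*-KO 1 and 2 for each gene (1 point per gene, in rising order, log axis), by class, with the median as a line. The replication genes have a median of 1.78, above the mitotic genes at 1.09 and the G1 class at 0.868.

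The G1 class was led by the D-type cyclins. *Ccnd1*, which couples growth signals to Cdk4 and Cdk6, was at 53.4, 56.8 and 81.1 CPM in WT and at 89.5, 124 and 92.5 CPM in *Themis*-KO (0.67 ± 0.19, adjusted p = 0.0614). Every *Themis*-KO liver was above every WT liver, with WT 3 nearest to them. *Ccnd2*, a further D-type cyclin, was at 10.0, 9.74 and 10.3 CPM in WT and at 16.9, 13.1 and 11.9 CPM in *Themis*-KO (0.48 ± 0.15, adjusted p = 0.0767). Neither passed the adjusted threshold with all livers, and both did without *Themis*-KO 3 (adjusted p = 0.0349 and 0.02). Without that liver, however, 2228 genes were called higher over the whole table, against 721 with all livers.

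*Ccne1*, an E-type cyclin that works with Cdk2 at the start of S phase, was at 4.04, 3.55 and 4.26 CPM in WT and at 6.67, 5.20 and 4.06 CPM in *Themis*-KO (0.43 ± 0.21, adjusted p = 0.203). It overlapped because *Themis*-KO 3 was below WT 3, and without *Themis*-KO 3, where calls were more frequent over all genes, its adjusted p was 0.0474. *Ccne2* was at 2.34, 2.06 and 2.01 CPM in WT and at 2.38, 2.84 and 2.503 CPM in *Themis*-KO (0.27 ± 0.19, adjusted p = 0.356), a narrow gap on 43 to 66 reads per liver. *E2f1*, which activates G1 and replication genes, was at 7.57, 9.502 and 9.35 CPM in WT and at 8.29, 7.05 and 12.8 CPM in *Themis*-KO (0.09 ± 0.23, adjusted p = 0.813). As in most replication genes, *Themis*-KO 3 was highest, at 1.67 times the mean of the other *Themis*-KO livers. Per kilobase of exon, the mean level of *Ccnd1* was 13.5 RPKM in WT and 21.6 RPKM in *Themis*-KO, and that of *Pcna* was 12.9 and 14.5 RPKM. *Prc1* was at 0.233 and 0.631 RPKM and *Mki67* at 0.619 and 1.09 RPKM on the same scale, both far under *Ccnd1*.

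Lists of other genes of the same pathways gave few calls. Of 91 further genes tested, 2 rose and 2 fell (2.2% each, below the shares over all genes), and their median fold change was 0.22. *Cdkn1a*, the p21 inhibitor of cyclin-dependent kinases, was at 7.61, 8.54 and 18.8 CPM in WT and at 35.5, 48.7 and 34.1 CPM in *Themis*-KO and rose by 1.75 ± 0.33 (adjusted p = 0.0297). It was the only gene to rise among 6 inhibitors tested. *Racgap1*, a partner of Ect2 and Kif23 at the central spindle, was at 1.56, 1.34 and 1.66 CPM in WT and at 3.02, 2.37 and 2.88 CPM in *Themis*-KO and rose by 0.85 ± 0.20 (adjusted p = 0.0429). It was the only one to rise among 45 further mitotic genes tested, of which 35 had a positive fold change, 19 lay above WT without overlap (42.2%) and the median was 0.34.

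The genes that fell belonged to the replication and G1 lists. *Mcm10*, a replication initiation factor, was at 69.3, 76.5 and 59.3 CPM in WT and at 27.1, 28.0 and 37.3 CPM in *Themis*-KO and fell by 1.15 ± 0.15 (adjusted p = 0.0123). It was the only call among 27 further replication genes, whose median fold change was 0.03. *Rbl2*, the retinoblastoma relative p130 that holds resting cells out of the cycle, was at 59.9, 51.4 and 50.7 CPM in WT and at 32.2, 30.1 and 38.6 CPM in *Themis*-KO and fell by 0.68 ± 0.12 (adjusted p = 0.0241). It was the only call among 13 further G1 genes, where the median was 0.14. These 4 calls were lost, like the 6 mitotic ones, when WT 1, WT 2, *Themis*-KO 1 or *Themis*-KO 2 was left out, and *Racgap1* also without WT 3 (adjusted p = 0.0757). A list of 42 proliferation genes made by the study for single nuclei had 41 tested, of which 3 rose (7.32%, beside 4.97% of all genes) and 0 fell. The study scored it in hepatocyte nuclei of mice that lacked *Themis* in hepatocytes only, and reported similar scores in both genotypes. Here the same genes were measured in whole liver and a knockout of the whole body, so the results are not directly comparable. Of this list, 22 genes are also members, and among its other genes 0 of 19 passed by edgeR (1 was higher and 1 lower by an unadjusted p of 0.05).

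Some markers of several liver cell types also differed between the labels. Of 9 stellate cell markers 4 rose (*Col1a1*, *Col3a1*, *Pdgfrb* and *Dcn*), and their summed level was 369 to 414 CPM in WT and 548 to 591 CPM in *Themis*-KO. Of 10 macrophage markers 1 rose (*Cd68*), and the sums were 336 to 599 and 540 to 690 CPM, where WT 3 lay within the *Themis*-KO range. In the same list 8 fold changes were positive, while *Cd163* (−0.96, adjusted p = 0.0562) and *Marco* (−1.29) had negative fold changes, and for *Cd163* every *Themis*-KO liver was below every WT liver. The cholangiocyte list had 1 of 7 rise (*Spp1*), with sums of 167 to 207 and 399 to 629 CPM, and the endothelial list 1 of 8 (*Lyve1*), with sums of 216 to 237 and 241 to 266 CPM. Of 10 hepatocyte markers 1 fell (*Serpina1c*), and the sums were 58589 to 66686 CPM in WT and 49124 to 52540 CPM in *Themis*-KO. Of 6 T cell markers tested 1 fell (*Cd4*, −1.46), while 4 fold changes were positive and 2 negative. The largest was that of *Cd8a* (1.38, adjusted p = 0.167), and the T cell sums were at most 7.1 CPM in any liver. Of 6 B cell markers 0 rose or fell by edgeR, also at an unadjusted p under 0.05, with sums of at most 8.06 CPM. Erythroid precursor genes had 1 of 6 tested fall (*Alas2*), while 3 fold changes were negative and 3 positive (*Hba-a1*, *Hbb-bs* and *Hbb-bt*). The largest of them was that of *Klf1* (−1.57, adjusted p = 0.0508), for which every *Themis*-KO liver was below every WT liver. *Gata1* had 0 or 1 read in each liver, and of the granulocyte precursor genes only *Prtn3* had enough reads to be tested. The part of these cell types in the differences of the mitotic genes was not tested.

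Exons of 13 members overlap a gene on the other strand in GENCODE vM21, among them *Ccnd1*, *Ccnd2*, *Ccne2*, *Gins2*, *Tk1*, *Ccna2*, *Cdc20*, *Plk1* and *Prc1*. Whether the counting used strand is not given in the sources used here, so reads of such a pair cannot be told apart and these values are uncertain. *Pcna*, *Tyms*, *Ccnb1* and *Ccnb2* have named pseudogenes that could share reads with them, and *Foxm1*, *Top2a* and *Mcm7* overlap genes on their own strand.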

How the data were processed

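Poly(A) RNA of 3 WT and 3 *Themis*-KO livers was sequenced, and groups and replicate numbers were taken from the sample titles. The authors trimmed reads with cutadapt 2.3, mapped them to GRCm38 with STAR 2.7.8a and deposited RSEM 1.3.3 estimated counts per gene, which are whole numbers in the table and not normalized (versions from the submitters' processing notes). RSEM divides reads between similar genes, so their values depend on each other. The annotation release is not given in the sources used here, and coordinates and exon lengths are from GENCODE vM21.

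In R 4.3.3, edgeR 4.0.16 (filterByExpr, TMM, glmQLFit, glmQLFTest) compared the genotypes on all 6 livers without covariates, with Benjamini-Hochberg adjustment over 14496 genes and a threshold of 0.05. The study used DESeq2, which served here as an alternative. SE is the log2 fold change divided by the square root of its F statistic. Mean log2 CPM of a class used a prior count of 2. The fits were tested on simulated data with the same dispersion for every gene and no liver set apart. That test says nothing about how the calls depend on single livers here. Nothing in the labels ties a liver to a separate batch, and p-values measure the spread between these livers, which is 3 per group. CPM of 1 read was 0.0395 to 0.048.

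The members and lists were chosen with earlier results of these data known. Named genes are *Themis*, the G1 class, 10 preset members, every member that passed the threshold, the 4 lowest p-values of the replication and mitotic classes, and other pathway genes that passed. Other members and markers were picked with their values in view. Alternatives were other scalings (RLE, upper quartile, library totals), other filters, DESeq2 1.42.0, a replicate block, the *mt-Nd3* and *Gm28438* split as a covariate, each liver left out, and motifs on the gene's strand only. Figures were drawn with matplotlib 3.10.9.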

Additional observations from a re-analysis of the deposited data

How the results depend on the processing

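The 6 mitotic genes that rose passed the threshold under RLE size factors, upper quartile scaling, library totals, no filter, at least 10 counts in every liver and DESeq2, with fold changes from 0.80 to 1.56. Scaling by library totals alone moved the median of all genes to 0.15, and changes under it are relative to that. It gave 14 members higher (2 G1, 1 replication, 11 mitotic) beside 10.0% of all genes, no filter gave 10 (1 G1, 1 replication) beside 4.77%, DESeq2 gave 12 (1 G1, 1 replication, 10 mitotic) beside 8.82%, and an unadjusted p gave 18. Other pathway genes called higher numbered 6, 4 and 4 under library totals, no filter and DESeq2. With the replicate block, with the *mt-Nd3* and *Gm28438* split as a covariate, and without WT 1 and WT 2 together (chosen after seeing the data), 0 members and 0 mitotic genes rose, 0 other pathway genes rose, and 0 of either fell. The covariate left 0 genes higher and 3 lower of 14496 and the fit without WT 1 and WT 2 left 0 higher and 9 lower of 15323, so no member could be called higher there. The replicate block left 17 higher and 45 lower, and under it the 6 genes had fold changes from 0.85 to 1.44 and adjusted p from 0.0642 to 0.117. Whether the replicate numbers pair the livers was not settled, and the study calls these livers 3 pairs. The mean correlation of deviations was −0.13 for the 3 pairs with equal numbers (−0.24 to 0.00028). It was 0.066 for the 6 with unequal numbers (−0.14 to 0.28). These ranges overlap and the deviations are from means of only 3 livers, so the values cannot decide it. Leaving out 1 liver gave 0 to 6 mitotic genes higher, 0 to 9 members higher, 0 to 1 members lower, 0 to 3 G1 genes higher, 0 to 1 replication genes higher and 0 to 1 lower, 0 to 7 other pathway genes higher and 0 to 8 lower. Over the whole table the same fits called 8 to 2228 genes higher and 12 to 2039 lower, the most without *Themis*-KO 3. The counts of 6 mitotic genes, 9 members and 3 G1 genes came from that fit. These ranges therefore cannot be read apart from how many genes each fit called. The G1 median was 0.57 under library totals, 0.33 with the covariate, 0.31 without WT 1 and WT 2, and 0.31 to 0.56 when 1 liver was left out. The mitotic median was 0.44 with the covariate, 0.42 without WT 1 and WT 2, and 0.65 to 1.05 when 1 liver was left out. The causes were not tested.

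Some single fold changes turned sign, among them those of *Aurkb*, *Cenpe* and *Cenpf*, which were 0.67, 0.54 and 0.44 with all livers. When 1 liver was left out, they ranged from −0.22 to 0.25 (*E2f1*, also −0.00882 without WT 1), −0.0775 to 0.57 (*Mcm3*), −0.55 to 0.18 (*Mcm4*), −0.0957 to 0.57 (*Mcm5*), −0.0816 to 0.29 (*Mcm7*), −0.59 to 0.0426 (*Rrm1*), −0.0261 to 0.55 (*Rrm2*) and −0.25 to 0.45 (*Bub1*). Under library totals *Mcm4* was at 0.0869 and *Tyms* at 0.0601. With the covariate, *Aurkb* was at −0.0788, *Bub1* at −0.19, *Cenpe* at −0.10, *Cenpf* at −0.0394 and *Kif11* at −0.0846. Without WT 1 and WT 2, *E2f1* was at −0.0151, *Rrm2* at −0.0108, *Aurkb* at −0.0976, *Bub1* at −0.21, *Cenpe* at −0.12, *Cenpf* at −0.0583 and *Kif11* at −0.10. The replication median was −0.0796 without *Themis*-KO 3. Summing rows of a symbol was not run, since each symbol has 1 row. The mitotic genes had 5 to 268 reads per gene and liver.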
